A study of Homo sapiens with 4 samples.

Results

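The genes described here encode the subunits of the ion channels that neurotransmitters open directly. They were chosen by gene symbol from the nicotinic acetylcholine (CHRN), GABA-A and GABA-C (GABRA to GABRR), ionotropic glutamate (GRIA, GRIK, GRIN and GRID), glycine (GLRA and GLRB) and serotonin-gated (HTR3) families. The naming rule itself uses no measured value, but these families were taken up with earlier results of the same data known. In all 61 such genes had a probe set, among 17217 named genes on the arrays. GABRR3 and GLRA4 also fit these names but matched no probe set and were not analysed here, and the same holds for the antisense genes GABRA6-AS1 and GABRG3-AS1. RNA came from HEK293 cells, a human embryonic kidney line transformed with adenovirus DNA, and the series holds a single group of 4 biological replicates. The cells were untreated, grew in DMEM with serum, and were extracted from a separate plate for each replicate. HEK293 is 1 line, so the 4 arrays cover cultures of that line and nothing beyond it. The spread between them holds differences between arrays as well as between cultures. Of the markers listed for embryonic kidney and epithelial cells 9 of 13 were detected, as were 6 of 13 neuronal markers, 1 of 8 blood, 1 of 8 fibroblast, 0 of 8 muscle and 0 of 8 chromaffin cell markers, beside 52.7% of all genes. The neuronal share of 46.2% is near that background.

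As background, nicotinic, GABA-A, glycine and serotonin-gated receptors are rings of related subunits around a pore, and the ionotropic glutamate receptors form a separate family that also assembles from several subunits. A channel usually needs more than a single kind of subunit, although some subunits form a channel alone. Brain, spinal cord and skeletal muscle are the tissues in which these channels are best known. HEK293 cells are a common host for expressing them from cloned DNA, which makes the message that the untreated line already holds of practical interest.

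Each array has 3 probes for a target, and a gene's level was taken from their mean and is given in log2 units. The threshold followed the rule of the study and rests on seminal proteins that the line was not thought to transcribe, of which 10 of the 11 listed were matched here. Their mean on an array stood for zero expression. The mean plus 2 SD of these control genes on an array was its threshold, called the baseline here, which stood at 10.10 ± 0.52 log2 units (SD, n = 4 arrays). A gene's distance is its level minus the baseline of the same array, and a gene with a mean distance above 0 is called detected. Every probe binds with its own affinity, so the distances say whether a value passed that threshold and do not rank the amounts of different messages. A gene below the baseline can still lie above the mean of the controls.

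Of the 61 subunit genes, 6 (9.84%) were detected, whereas 52.7% of all genes on the arrays were. The detected subunits were the nicotinic genes CHRNB1, CHRNA5, CHRNA7 and CHRNB4, the glycine receptor gene GLRB and the GABA-A gene GABRE. Above the baseline on all 4 arrays were 4 of them, CHRNB1, CHRNA5, CHRNA7 and GLRB, against a share of 45.0% among all genes. The one-sided limma test of the distance against 0, adjusted by Benjamini-Hochberg over all genes, called the same 4 genes, against 45.9% of all genes. With a threshold of 3 SD limma called 2 of the 61, and CHRNA7 at 0.53 (limma adjusted p = 0.257) and GLRB at 0.05 (limma adjusted p = 1) were no longer called. At 3 SD 39.1% of all genes were detected, against 52.7% at 2 SD, and the share of all genes called by limma was not counted. With the baseline of 2 SD, the median distance was -2.83 log2 units over the 61 subunits and 0.26 over all genes. A further 4 subunits, among them CHRNA10, CHRNB2 and GABRQ, crossed the baseline on at least 1 array without a mean above 0. The other 51 subunits lay below it on every array.

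**Figure D1:**
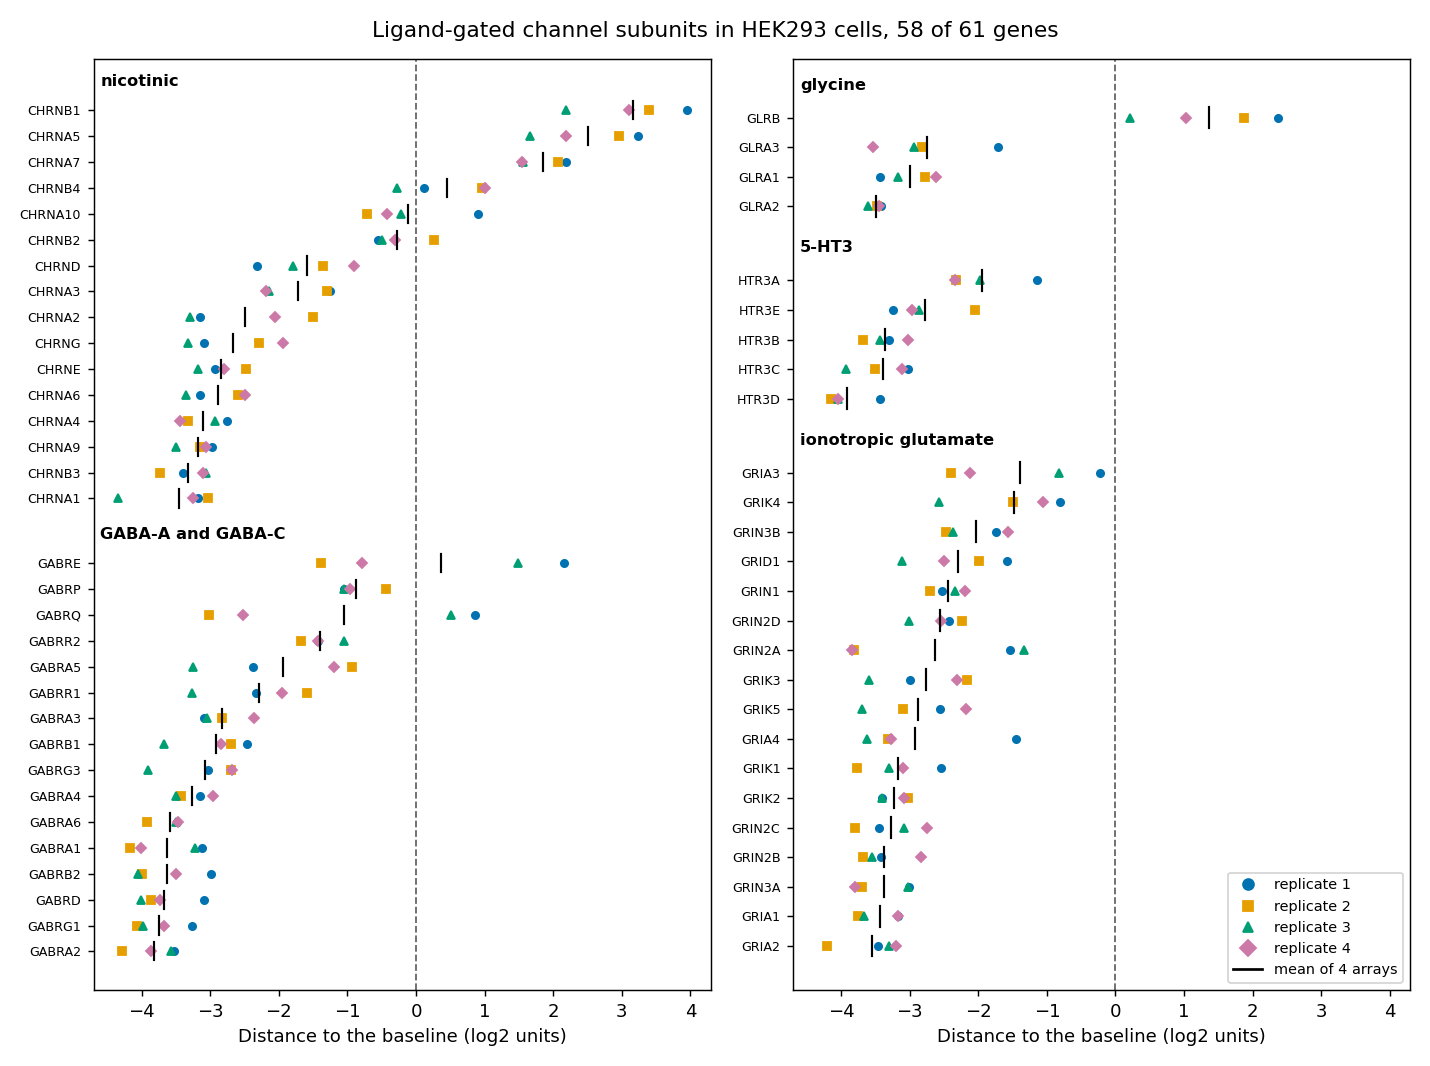
Distance to the baseline (log2 units, x axis) of 58 of the 61 subunit genes, with 1 point per array and a bar at the mean of the 4 arrays; the dashed line at 0 is the baseline. CHRNB1, CHRNA5, CHRNA7 and GLRB lie right of the line on all 4 arrays, and no ionotropic glutamate or serotonin-gated subunit shown reaches it on any array.

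Nicotinic subunits gave 4 of 16 detected genes, 3 of them on all 4 arrays. CHRNB1 encodes the beta subunit of the receptor at the nerve-muscle junction. Its distances on replicates 1 to 4 were 3.94, 3.39, 2.18 and 3.11, with a mean of 3.16 ± 0.74 log2 units (SD, n = 4). It was above the baseline on all 4 arrays, each time by more than 1 SD, and lowest on replicate 3. The other subunits of the muscle receptor were not detected. CHRND stood at -1.59 ± 0.60, CHRNG, the fetal subunit, at -2.66 ± 0.66, CHRNE, its adult counterpart, at -2.85 ± 0.29 and CHRNA1, which carries the main face of the acetylcholine site, at -3.45 ± 0.61 (SD, n = 4 for each). On none of the arrays did any of these 4 genes reach the baseline.

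Among the 11 neuronal-type nicotinic genes, 3 were detected. CHRNA5 encodes an accessory subunit that needs partner subunits to form a channel. Its distances on replicates 1 to 4 were 3.23, 2.95, 1.66 and 2.18, with a mean of 2.51 ± 0.72 (SD, n = 4). CHRNA7 encodes the subunit of a receptor that can be built from this subunit alone. It lay at 2.19, 2.08, 1.57 and 1.55 on replicates 1 to 4, with a mean of 1.85 ± 0.34 (SD, n = 4). Both genes were above the baseline on all 4 arrays. CHRNA7 had the narrower spread of the pair in distance only. In the levels before the baseline was subtracted, the SD was 0.25 for CHRNA7 and 0.23 for CHRNA5. CHRFAM7A, a partial copy of CHRNA7 with its own target on the array, stood at 0.88 ± 0.56 (SD, n = 4) and above the baseline on all 4 arrays. Probe sequences were not used here, so how far the message of one of these copies adds to the value of the other was not tested.

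CHRNA5, CHRNA3 and CHRNB4 follow each other as protein-coding neighbours on chromosome 15, and their values differed. CHRNA3, the usual partner of CHRNB4 in ganglia, lay at -1.25, -1.29, -2.14 and -2.19 on replicates 1 to 4, below the baseline on every array, with a mean of -1.72 ± 0.52 (SD, n = 4). CHRNA3 and CHRNA5 overlap in the gene table, and the labelling of double-stranded cDNA did not keep the strand, so message from their shared stretch cannot be told apart. CHRNB4 was detected at 0.45 ± 0.64 (SD, n = 4), which is within its spread, and limma did not call it (adjusted p = 0.203). Replicates 1 to 4 gave 0.12, 0.96, -0.27 and 1.01, so that replicate 3 lay below the baseline. On replicates 2 and 4 alone, a setting chosen after seeing the data, CHRNB4 stood at 0.99 and limma called it (adjusted p = 0.00462). These are the arrays on which CHRNB4 was highest, so no conclusion is drawn from that call. The sign depended on how the probes were averaged, since averaging its probes on the log2 scale gave -0.034 and taking their median -0.94.

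The nicotinic genes nearest the baseline from below were CHRNA10, a partner of CHRNA9 in hair cells of the inner ear, and CHRNB2, the main beta subunit of nicotinic receptors in the brain. CHRNA10 lay at 0.90 on replicate 1 and between -0.71 and -0.22 on the others, with a mean of -0.11 ± 0.70 (SD, n = 4). CHRNB2 lay at 0.27 on replicate 2 and between -0.55 and -0.30 on the others, with a mean of -0.27 ± 0.37 (SD, n = 4). Both means were within 1 standard error of the baseline, which limma put at 0.351 log2 units for every gene. Before the baseline was subtracted, CHRNA10 had levels of 10.37 on replicate 1 and 10.47 on replicate 3. CHRNB2 had levels of 10.204 on replicate 2 and 10.195 on replicate 3. The baseline was 9.47, 9.94 and 10.69 on replicates 1 to 3, so these crossings do not mark a higher level than on replicate 3. CHRNA4, which pairs with CHRNB2 in the brain, stood at -3.11 ± 0.32 (SD, n = 4). The other 5 neuronal-type genes, CHRNA2, CHRNA6, CHRNA9, CHRNB3 and CHRNA3, had means from -3.32 to -1.72, and none crossed the baseline on any array.

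Of the glycine receptor genes, GLRB was detected and none of the 3 alpha subunit genes was. GLRB encodes the beta subunit, which ties the receptor to the scaffold protein gephyrin and which needs alpha subunits to form a glycine-gated channel. Replicates 1 to 4 gave distances of 2.36, 1.87, 0.21 and 1.03, with a mean of 1.37 ± 0.95 (SD, n = 4). It was above the baseline on all 4 arrays, by little on replicate 3 (limma adjusted p = 0.000127). This p rests on the standard error shared by all genes and does not measure the spread of GLRB. On replicates 3 and 4 alone GLRB stood at 0.62 (limma adjusted p = 0.123), and on replicates 1 and 3 alone at 1.29 (limma adjusted p = 0.0525). GLRA3, GLRA1 and GLRA2 stood at -2.75 ± 0.76, -3.00 ± 0.38 and -3.49 ± 0.08 (SD, n = 4 for each), below the baseline on every array.

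Single probes of these genes were then set against the same baseline. Of the 207 probes of the 61 subunits, 20 had a mean distance above 0, and the same count over all probes was not made. For CHRNB1, CHRNA5 and CHRNA7 each of the 3 probes was above the baseline on each of the 4 arrays, which was the case for 3 of 61 subunits and 23.3% of all genes. The lowest of the 12 probe values was 1.38 for CHRNB1, 0.34 for CHRNA5 and 0.49 for CHRNA7. For GLRB 11 of 12 probe values lay above the baseline, and the exception was -0.97 on replicate 3. CHRNB4 differed, since 1 of its 3 probes carried the call, with a mean distance of 1.68, while the others had means of -1.63 and -1.16. CHRNA10 and CHRNB2 also had 1 probe each with a mean above 0, at 0.68 and 0.80, and their lowest probes had means of -3.66 and -2.12.

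**Figure D2:**
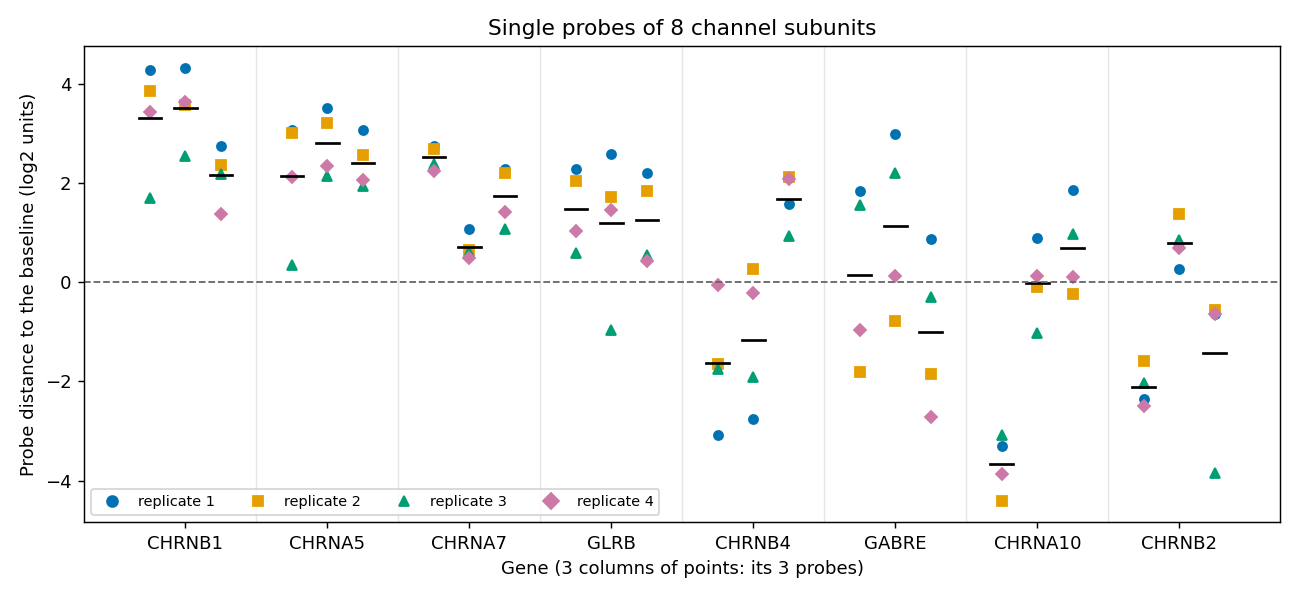
Distance of single probes to the baseline (log2 units, y axis) for 8 subunit genes, with 3 columns of points per gene for its 3 probes, 1 point per array and a bar at each probe's mean. All 12 points of CHRNB1, CHRNA5 and CHRNA7 lie above the dashed baseline, while in CHRNB4 1 probe lies above it on all arrays and the others mostly below.

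GABA-A receptors are chloride channels, most often built from alpha, beta and gamma subunits, and GABA-C is an older name for channels of rho subunits. Of 18 such genes, 1 was detected and none was above the baseline on all 4 arrays. None of 6 alpha, 3 beta, 3 gamma and 2 rho subunit genes was detected. With limma 0 of the 18 passed the adjusted threshold, and 0 passed 0.05 unadjusted. Only the 1 gene with a mean above 0 could pass this one-sided test. GABRA5 stood at -1.94 ± 1.07 and GABRG3 at -3.08 ± 0.58 (SD, n = 4 for each). The remaining alpha subunit genes had means from -3.81 for GABRA2 to -2.83 for GABRA3, the gamma genes from -3.75 for GABRG1 to -3.08 for GABRG3, and the rho genes GABRR1 and GABRR2 were at -2.28 and -1.40. GABRP, a subunit known from epithelia outside the brain, stood at -0.87 ± 0.30 (SD, n = 4) and below the baseline on each array, and GABRD at -3.67 ± 0.40 (SD, n = 4).

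GABRE, the epsilon subunit, was the GABA-A gene with a mean above 0, at 0.37 ± 1.72 log2 units (SD, n = 4, limma adjusted p = 0.303). Replicates 1 to 4 gave distances of 2.15, -1.39, 1.48 and -0.78. Replicates 1 and 3 were therefore far above the baseline and replicates 2 and 4 below it. The mean fell to -0.23 without replicate 1 and to -0.0064 without replicate 3. Without replicate 2, its lowest array, the mean rose to 0.95 ± 1.54 (SD, n = 3, limma adjusted p = 0.035). That p rests on the standard error shared by all genes and not on this spread. The theta subunit gene GABRQ had the same order of arrays, at 0.85, -3.02, 0.51 and -2.52 on replicates 1 to 4 and a mean of -1.04 ± 2.01 (SD, n = 4). Each of the 3 probes of GABRE and of GABRQ had higher distances on both replicates 1 and 3 than on replicates 2 and 4.

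The same order appeared in the levels before the baseline was subtracted. GABRE had levels of 11.62, 8.55, 12.17 and 9.54 on replicates 1 to 4, and GABRQ 10.32, 6.92, 11.20 and 7.80. The gap between the lower of replicates 1 and 3 and the higher of replicates 2 and 4 was 2.08 log2 units for GABRE and 2.52 for GABRQ. A gap over 2 in this direction occurred in 0.29% of all genes, and a gap over 1 in 1.86%. In the subunits 2 of 61 had a gap over 2, and 4 of 61 a gap over 1, the others being GRIN2A and GRIA3, which encode subunits of NMDA and AMPA receptors. GRIN2A had a gap of 1.46, with levels of 7.94, 6.12, 9.35 and 6.48, and GRIA3 a gap of 1.04. The opposite order, with replicates 2 and 4 higher by over 1, was seen in 1.73% of all genes and in 1 subunit, GABRA5, with a gap of 1.56. In distance, each probe of GRIN2A kept its gene's order, but not each probe of GRIA3 and GABRA5. On replicates 1 to 4, 1 probe of GRIA3 lay at 1.13, -0.99, 0.76 and -1.46, and another at -2.04, -3.78, -4.08 and -2.97. For GABRA5, 1 probe lay at -3.10, 0.18, -3.69 and -0.29, and another at -1.76, -2.19, -3.76 and -2.28. Replicates 1 and 3 were set apart from 2 and 4 after their values were seen. The labels give no difference between them, so no test was made. GABRE and GABRQ lie near each other on the X chromosome. GABRA3 is the protein-coding neighbour of GABRQ and lies between both, and its levels of 6.38, 7.11, 7.64 and 7.96 did not follow the order.

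**Figure D3:**
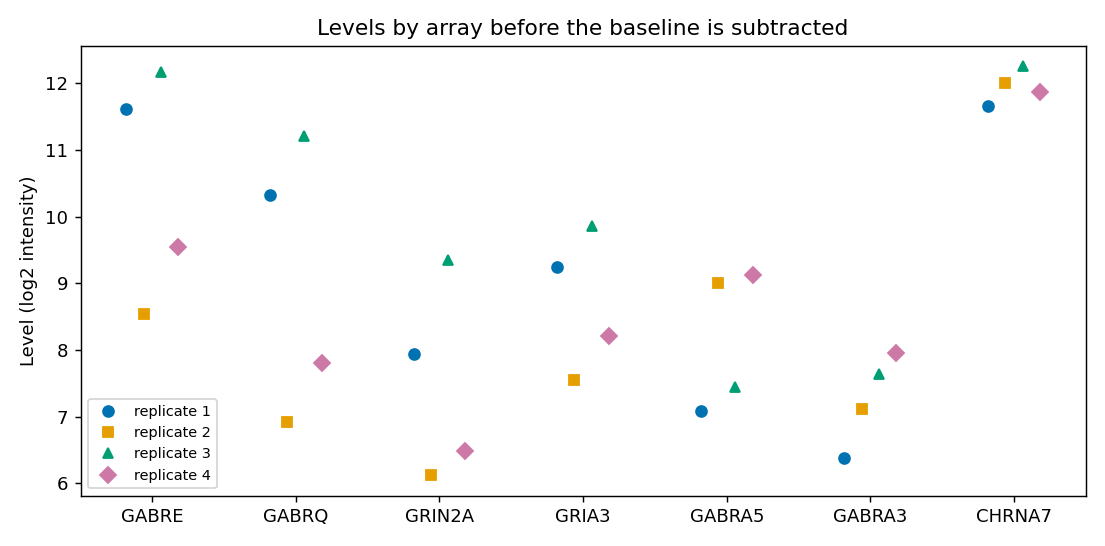
Level (log2 intensity before the baseline is subtracted, y axis) of 7 subunit genes, with 1 point per array. GABRE, GABRQ, GRIN2A and GRIA3 are higher on replicates 1 and 3 than on 2 and 4, GABRA5 the other way round, and GABRA3 and CHRNA7 show neither order.

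The promoters of GABRE, GABRQ and GRIN2A are printed because these genes shared that order of arrays. Each is the stretch of 250 bases just before the gene's most upstream start in the RefSeq table of assembly GRCh38.p14, read 5′ to 3′ on the gene's strand. Capitals mark the GC box, GGGCGG or its reverse complement CCGCCC, with overlapping matches counted singly. GRIA3 had no entry. The stretch of GABRQ also overlaps the gene MAGEA3-DT in the table. The stretches lie at chrX:151974677-151974926 on the minus strand for GABRE, chrX:152637645-152637894 on the plus strand for GABRQ and chr16:10182068-10182317 on the minus strand for GRIN2A.
GABRE: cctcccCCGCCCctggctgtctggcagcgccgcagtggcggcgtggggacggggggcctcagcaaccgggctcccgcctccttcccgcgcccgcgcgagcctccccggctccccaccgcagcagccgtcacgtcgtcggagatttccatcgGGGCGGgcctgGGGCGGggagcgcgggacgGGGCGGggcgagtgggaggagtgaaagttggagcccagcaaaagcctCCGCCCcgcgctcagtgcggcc
GABRQ: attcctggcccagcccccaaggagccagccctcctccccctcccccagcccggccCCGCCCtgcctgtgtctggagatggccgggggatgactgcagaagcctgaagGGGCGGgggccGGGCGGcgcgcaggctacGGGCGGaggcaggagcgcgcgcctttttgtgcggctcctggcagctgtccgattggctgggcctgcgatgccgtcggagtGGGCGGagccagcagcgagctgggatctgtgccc
GRIN2A: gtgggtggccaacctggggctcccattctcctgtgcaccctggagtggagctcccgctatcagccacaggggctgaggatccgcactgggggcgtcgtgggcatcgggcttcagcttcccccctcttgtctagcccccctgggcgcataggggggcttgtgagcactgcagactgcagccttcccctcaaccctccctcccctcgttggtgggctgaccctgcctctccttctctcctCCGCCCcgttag
GABRE and GABRQ each held 5 GC boxes and GRIN2A held 1, and 42.2% of the 27305 promoters in the table held at least 1. The share of promoters with 5 was not counted, so the count of 5 has no background here. The stretches of GABRE, GABRQ and GRIN2A held 31, 20 and 9 CG dinucleotides, beside a median of 10 over all promoters. A promoter entry was matched for 42 of the 61 subunits, under the 80% needed, so a check of promoter composition over the whole set is void.

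Ionotropic glutamate receptors carry most fast excitation in the brain. None of the 18 genes was detected, and none was above the baseline on any array. With limma 0 passed the adjusted threshold and 0 passed 0.05 unadjusted. All these means were below 0, where a one-sided test can make no call, so the test adds nothing to the counts. The 4 AMPA receptor genes had mean distances from -3.54 for GRIA2, which sets calcium passage through the channel, to -1.39 for GRIA3. The 5 kainate receptor genes ranged from -3.23 for GRIK2 to -1.48 for GRIK4, an accessory subunit that needs partners. Among the 7 NMDA receptor genes, GRIN1, which every NMDA receptor needs, stood at -2.44 ± 0.22 (SD, n = 4), and the glutamate-binding subunits GRIN2A, GRIN2B, GRIN2C and GRIN2D stood at -2.63, -3.37, -3.27 and -2.55. GRIN3A and GRIN3B were at -3.38 and -2.03. The delta receptor gene GRID1 was at -2.29.

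GLRB and GRIA2 are protein-coding neighbours on chromosome 4, and they gave opposite calls, since GRIA2 lay at -3.46, -4.21, -3.31 and -3.20 on replicates 1 to 4.

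Serotonin-gated channels require HTR3A, which forms a channel alone or with HTR3B to HTR3E. None of the 5 genes was detected, and with limma 0 passed the threshold either adjusted or unadjusted. Their means were all below 0, where the one-sided test could make no call. HTR3A had distances of -1.14, -2.33, -1.98 and -2.35 on replicates 1 to 4 and a mean of -1.95 ± 0.56 (SD, n = 4). The other HTR3 genes ranged from -3.92 for HTR3D to -2.78 for HTR3E.

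A gene with several targets allows its probe sets to be compared. This was so for 7 subunits, among them GABRB2, GRIA3, GRIK1, GRIK2, GRIN1 and HTR3A, and none of the 7 was detected. Their 15 targets had mean distances from -3.73 to -1.38, no target crossed the baseline on any array, and the targets of a gene differed by at most 0.76 log2 units.

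The position of the undetected genes below the baseline can be read against the controls. The control genes had a mean level of 7.47 ± 0.36 log2 units (SD, n = 4 arrays). SPATA5 and SPATA13, at mean levels of 9.97 and 9.72, raised this control mean, since the other controls had levels from 6.53 to 7.25. Above the control mean were 20 of the 55 undetected subunits, while 25 of the 61 subunits lay below it on all 4 arrays. The same counts over all genes, or without SPATA5 and SPATA13, were not made. The 364 olfactory receptor genes, receptors of the nose, had a median distance of -3.42, with 1 of them detected.

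The count of detected subunits depended on where the baseline was set. The controls SPATA5, now AFG2A, and SPATA13 stood at -0.13 ± 0.15 and -0.38 ± 0.19 (SD, n = 4 for each), whereas the other 8 controls had means from -3.58 to -2.85. Without both of them 21 of 61 subunits (34.4%) were detected, beside 74.0% of all genes. With olfactory receptor genes as controls it was 19 (31.1%), beside 71.4%, and with 1 SD 11 (18.0%), beside 64.3%. With 3 SD it was 4 (6.56%), beside 39.1%. Without SPATA5 and SPATA13 the added genes included the nicotinic CHRNA10, CHRNB2, CHRND and CHRNA3, the GABA-A or GABA-C genes GABRP, GABRQ, GABRR1, GABRR2 and GABRA5, the glutamate receptor genes GRIA3, GRIK4, GRIN3B and GRID1, and HTR3A. Of these CHRNB2 and CHRNA10 reached 2.06 and 2.22 log2 units above that lower baseline. The mean distances of GRIN1, GLRA1, GLRA2, GLRA3, GABRG1 and GABRG3 stayed below 0 under all the baselines tried. Without SPATA5 and SPATA13 GRIN1 had a mean of -0.11 and passed the baseline on replicates 3 and 4, as GLRA3 did on replicate 1.

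**Figure D4:**
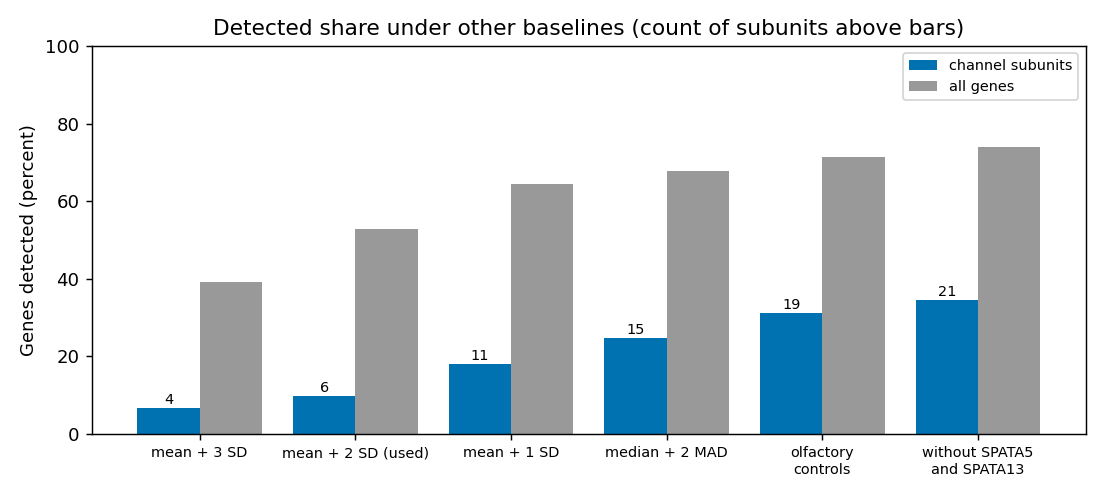
Share of genes detected (percent, y axis) among the 61 subunits and among all genes under 6 baselines, with the number of subunits above each bar. The subunit share runs from 6.56% with 3 SD to 34.4% without SPATA5 and SPATA13 and is below that of all genes under each of these baselines.

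Genes listed as partners of the channels were counted in the same way, beside 52.7% of all genes detected and 45.9% called by limma. Not all of them encode proteins that fold, carry or anchor a channel. Of 16 measured partners of GABA-A and glycine receptors, 12 (75.0%) were detected and limma called 11. They included GABARAP at 5.01 ± 0.76, a protein of vesicle traffic and autophagy, CLPTM1 at 3.81 ± 0.55, which holds GABA-A receptors back in the cell, GABARAPL1 at 3.39 ± 0.93, and GPHN, which encodes gephyrin, at 3.25 ± 0.78 (SD, n = 4 for each). ZDHHC3, a palmitoyltransferase, stood at 3.22 ± 0.69 (SD, n = 4). Several of these proteins serve functions outside the synapse.

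Of 16 partners of nicotinic and serotonin-gated receptors, 6 (37.5%) were detected and limma called all 6, beside 52.7% and 45.9% of all genes. LYPD1, of the Ly-6 family, stood at 2.94 ± 0.77, AGRN, the agrin that gathers receptors at the nerve-muscle junction, at 2.90 ± 0.63, LY6E at 2.50 ± 0.63, LRP4, the agrin receptor, at 1.92 ± 0.93 and LYPD6B at 1.02 ± 0.61 (SD, n = 4 for each). Named after their values were seen, RIC3 and TMEM35A, chaperones that help CHRNA7 to assemble, stood at -2.82 ± 0.70 and -2.61 ± 0.53, and RAPSN, the muscle receptor's scaffold, at -3.20 ± 0.54 (SD, n = 4 for each). None of these 3 reached the baseline on any array.

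Of 37 partners of glutamate receptors, 13 (35.1%) were detected and limma called 8, beside 52.7% and 45.9% of all genes. GRINA stood at 4.19 ± 0.38, GRIPAP1 at 3.77 ± 0.73, the scaffold genes DLG1 and DLG3 at 3.12 ± 0.41 and 3.08 ± 0.25, and PICK1 at 2.11 ± 0.39 (SD, n = 4 for each). Of 38 genes for making, moving and breaking down the transmitters, 10 (26.3%) were detected and limma called 7. They included GLUL, glutamine synthetase, at 4.57 ± 0.61, SHMT1 at 2.85 ± 0.66, SRR, which makes D-serine, at 2.83 ± 0.70 and the glutamate transporter SLC1A3 at 2.42 ± 1.09 (SD, n = 4 for each).

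Other receptor and channel families were counted the same way, beside 52.7% of all genes detected and 45.9% called by limma. Of 26 metabotropic receptors for the same transmitters, 2 (7.69%) were detected, GABBR1 at 2.87 ± 0.53 and CHRM3 at 0.82 ± 0.84 (SD, n = 4 for each). Of 13 channels opened by ATP, acid or zinc, 5 (38.5%) were detected. ASIC1, an acid-sensing channel, stood at 2.95 ± 0.36, ZACN, the zinc-activated relative of the nicotinic subunits, at 1.33 ± 1.07, P2RX4 at 0.90 ± 0.61, P2RX5 at 0.56 ± 0.60 and ASIC3 at 0.07 ± 0.31 (SD, n = 4 for each), and limma called 3 of these. Of 9 voltage-gated sodium channel alpha subunits 1 was detected, SCN9A at 1.18 ± 0.52 (SD, n = 4). Of 10 voltage-gated calcium channel alpha1 subunits none was, and with limma 0 passed the threshold adjusted or unadjusted. Their means were at most -0.53, where the one-sided test could make no call. These shares are counts over short lists, and no test between lists was made.

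**Figure D5:**
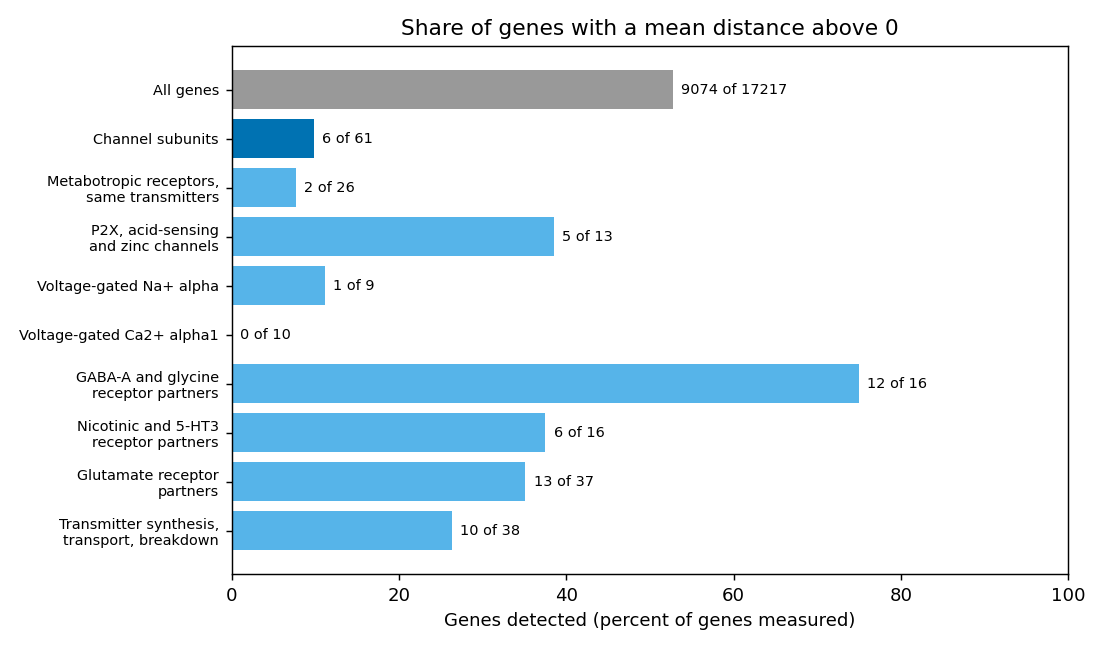
Share of genes detected (percent of genes measured, x axis) among all genes, the channel subunits and 8 related lists, with counts beside the bars. The subunits (6 of 61) lie below all genes, and the partners of GABA-A and glycine receptors (12 of 16) above.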

How the data were processed

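RNA of 4 HEK293 cultures was hybridised in a single colour to NimbleGen long-oligonucleotide expression arrays designed on HG18. The authors deposited log2 intensities per probe. Their methods name extraction with NimbleScan and log2 transformation, and the submitters' processing notes name RMA. Sorted values of replicates 1 and 2, and of 3 and 4, lay within 0.01 at 99.97% and 99.99% of ranks. Each of these pairs thus shared 1 distribution of values, and the number of arrays limits the precision.

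Targets were named through RefSeq accessions (assembly GRCh38.p14), which gave 17217 genes. A target was log2 of its probes' mean linear value, and a gene the mean of its targets. Of 11 control genes 10 were matched. The distance was tested in limma 3.58 (R 4.3) against 0, one-sided, with Benjamini-Hochberg adjustment at 0.05 over all genes. Prior degrees of freedom were infinite, so all genes shared 1 standard error. Because 1 baseline is subtracted from every gene of an array, the p-values are not independent of each other. The smallest one-sided p of an exact sign-flip permutation test here is 0.0625. The members and lists were chosen with earlier results of these data known. All subunits could be named, and from other lists the 5 genes with the largest distance above the baseline on all arrays, or all detected genes where there were 5 or fewer. Alternatives were other baselines, controls, probe and target summaries, joint quantile normalization, arrays left out and other limma settings. A few genes are counted in the totals but not reported here by name or shown in the plots.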

Additional observations from a re-analysis of the deposited data

Results flagged for a closer look

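In the distances of 5 of the 61 subunits 1 array stood far from the rest, with a ratio of its gap to the whole range past the limit of Dixon's test, and chance alone marks about 1 in 20. The same limit was passed by 4.32% of all genes. In the levels before the baseline was subtracted, none of the 5 genes (0 of 5) passed it. All 5 genes were below the baseline on every array. GABRA6 was at -3.92 on replicate 2 and at -3.50 to -3.47 on the others, with a ratio of 0.953. GABRP was at -0.43 on replicate 2 and at -1.05 to -0.97 on the others, with a ratio of 0.864. HTR3D was at -3.44 on replicate 1 and at -4.14 to -4.04 on the others, with a ratio of 0.856. GRIA4 was at -1.45 on replicate 1 and at -3.62 to -3.27 on the others, with a ratio of 0.842. CHRNA1 was at -4.35 on replicate 3 and at -3.25 to -3.03 on the others, with a ratio of 0.836. The baseline was lowest on replicate 1 and highest on replicate 3.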

How the results depend on the processing

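The settings with replicates 1 and 3 alone and with replicates 2 and 4 alone were chosen after seeing the data. No paired analysis was possible because the series holds 1 group. Other baselines changed the counts. With 1 SD there were 11 detected subunits, 9 on all 4 arrays and 9 called by limma. Without SPATA5 and SPATA13 there were 21, 13 and 16, with olfactory controls 19, 11 and 14, and with the median and MAD 15, 9 and 11. The detected share with the median and MAD was 24.6%, beside 67.7% of all genes. Under these other baselines, and with 3 SD, the shares of all genes above on all 4 arrays or called by limma were not counted. With 3 SD limma called 2, when GLRB stood at 0.05 and CHRNA7 at 0.53 (limma adjusted p = 0.257). The partner and transmitter lists together went from 41 detected genes to 26 with 3 SD, 68 without SPATA5 and SPATA13 and 63 with olfactory controls, and the related receptor and channel lists from 8 to 13 with 1 SD, 3 with 3 SD, 25 without SPATA5 and SPATA13, 21 with olfactory controls and 17 with the median and MAD. Leaving out 1 array gave 5 to 7 detected subunits, 4 to 5 on all remaining arrays and 4 to 5 called, 38 to 43 partner and transmitter genes, 7 to 8 in the related lists and 8715 to 9343 of all genes. CHRNB4 changed sign to -0.86 with 3 SD, -0.034 with the mean and -0.94 with the median of log2 probe values and -0.079 on replicates 1 and 3 alone. GABRE changed sign to -0.95 with 3 SD, -0.23 without replicate 1, -0.0064 without replicate 3 (and was 0.95 without replicate 2), and -1.09 on replicates 2 and 4 alone. CHRNA10, below the baseline at -0.11, stood at 0.071 with the median of log2 probe values, 0.088 without replicate 2, 0.096 on replicates 1 and 2 alone and 0.34 on replicates 1 and 3 alone, without a limma call in these settings. The cause was not tested. CHRNB1 and CHRNA5 kept a distance of at least 1.84 and 1.19 and a limma adjusted p of at most 9.97e-05 and 0.00388 under the 17 alternatives. The random block for array pairs, 1 with 2 and 3 with 4, had a correlation of 0.339. This block, the trend and robust prior and the filter on low levels each left 4 calls among the subunits.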
